A study of Mus musculus with 13 samples.

Results

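The serpins of clade A described here are mostly secreted liver proteins: hormone carriers, inhibitors of serine proteases and relatives of them, followed across livers that lack Sel1L in hepatocytes and wildtype livers. The list of 9 genes was chosen by hand with earlier results of these 13 livers known, and a gene's feature was selected on its mean level: among features with exactly 1 gene symbol, the brightest on average. Of the 9, 7 had such a feature (1 each) among the 18820 genes with 1 symbol on the array: Serpina6, Serpina7, Serpina10, Serpina12, Serpina3n, Serpina11 and Serpina4-ps1. Serpina3k and Serpina3m were not analysed here. Serpina4-ps1 is a transcribed pseudogene in RefSeq, so that for this gene the family name stands for an RNA and not for a secreted protein.

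The groups were LiSel1lKO at 9 weeks of age (n = 3), wildtype at 9 weeks (n = 3), LiSel1lKO at 3 weeks (n = 4) and wildtype at 3 weeks (n = 3), all on the C57BL/6J background, 1 array per liver. LiSel1lKO mice carry a floxed exon 6 of Sel1l and Cre under the albumin promoter, which is active in hepatocytes. Whether all other liver cells kept the gene was not measured here. Whether wildtype mice carried the floxed allele or the transgene was not given in the labels. All mice were fasted for 5 to 6 hours in the morning. Values are log2 expression after robust multi-array averaging (RMA), and a log2 difference is always LiSel1lKO minus wildtype or 9 minus 3 weeks.

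Sel1L and its partner, the ubiquitin ligase Hrd1, clear misfolded proteins out of the endoplasmic reticulum (ER). Serpins fold in that compartment into a metastable shape with an exposed reactive loop. An inhibitory serpin offers the loop to a protease as bait, springs into a more stable shape when it is cut, and traps the enzyme. The hormone carriers of the clade use the same fold to hold and release a ligand and inhibit no protease. Hepatocytes are the main source of most of these proteins in plasma, and in rodents several of the genes depend on age and on sex.

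Sel1l was at 7.90, 7.54 and 7.72 in the LiSel1lKO livers at 9 weeks and at 8.42, 7.90, 7.20 and 7.10 at 3 weeks, against 8.70 to 8.78 and 8.77 to 8.94 in the wildtype livers of the same ages, without overlap at either age. The differences, -1.02 ± 0.28 at 9 weeks and -1.21 ± 0.26 at 3 weeks (SE), did not pass the test over all features (limma, adjusted p = 0.108 and 0.391), and whether the probes lie in the deleted exon was not tested. The means of 9 hepatocyte markers lay between 12.40 and 12.59 in all 13 livers, and limma called 0 of them between genotypes at either age. Of the markers of 9 other cell types it also called 0 between genotypes (0 to 2 in each list at an unadjusted p under 0.05). At 3 weeks all 6 Kupffer cell markers were below 0 (median -0.37; mean level 7.18 to 7.59 in LiSel1lKO livers, against 7.71 to 7.85 in wildtype), as were both measured erythroid markers (median -1.26; mean level 4.83 to 5.93, against 6.00 to 6.95 in wildtype). With age in wildtype livers 3 of 6 sinusoidal endothelial markers fell (Lyve1, Stab2 and Oit3; median of the 6 -0.36), as did 1 of 6 Kupffer cell markers (Marco), 1 of 6 stellate cell markers (Reln) and 1 of 2 erythroid markers (Slc4a1). Between genotypes at 9 weeks both erythroid markers were also below 0 (median -0.65, mean level 4.70 to 5.27, against 5.32 to 5.87 in wildtype). All 4 neutrophil and monocyte markers were below 0 at either age (median -0.28 at 9 weeks and -0.18 at 3 weeks). At 3 weeks 5 of 6 sinusoidal endothelial and 5 of 6 stellate cell markers were below 0. At 9 weeks 4 of 6 Kupffer cell and 4 of 6 stellate cell markers were above 0. The part of these shifts in the serpin differences was not tested. Across features, arrays of 1 group correlated between 0.983 and 0.988 and arrays of different groups between 0.976 and 0.987. The labels do not give the sex of the mice. Xist lay between 1.71 and 2.64 in the 13 livers, below the array medians of 3.72 to 3.81. The Y-linked Eif2s3y, Kdm5d and Uty lay between 5.04 and 6.95, above those medians in every liver.

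At 9 weeks 3 of the 7 genes changed in LiSel1lKO livers, 1 up (Serpina7, the thyroxine carrier) and 2 down (Serpina12, vaspin, and Serpina4-ps1), where limma called 1.52% of all 35556 features at an adjusted p under 0.05, 1.03% up and 0.484% down. Since the genes were listed with results known, these counts and p-values describe them and give no independent support. The median difference of the 7 was -0.09, against -0.01 over all features. The genotypes did not overlap for 4 of the 7, 2 higher (Serpina6 in addition) and 2 lower in LiSel1lKO, where this held for 20.7% of the 18820 genes, 11.4% higher and 9.34% lower. At 3 weeks limma called 0 of the 7 and 0% of all features, and at an unadjusted p under 0.05 there were 1 of the 7 and 2634 features. There 1 of the 7, Serpina4-ps1, was lower without overlap, where 7.46% of the genes did not overlap, 3.67% higher and 3.79% lower. The difference of the genotype effect between ages passed for 0 of the 7 and for 0% of all features, where an unadjusted p under 0.05 was reached by 3 of the 7 and by 3459 of the 35556 features.

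With age, 2 of the 7 rose in wildtype livers and 0 fell, where limma called 1.89% of all features, 0.765% up and 1.12% down. The wildtype ages did not overlap for 5 of the 7, 3 higher and 2 lower at 9 weeks, where 19.6% of the genes did not overlap, 8.96% higher and 10.6% lower. In LiSel1lKO livers 1 of the 7 rose with age and 0 fell, where 0.155% of the features were called, 0.0759% up and 0.0787% down. The ages did not overlap there for 4 of the 7, 3 higher and 1 lower, against 10.8% of the genes, 5.52% higher and 5.29% lower. The age and genotype comparisons share livers, so their values stand side by side and are not independent.

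Promoter sequence was at hand for 4 of the 7 genes, from RefSeq (GRCm38.p6). The 250 bases before the transcription start are shown, 5′ to 3′ on the gene's strand, for the gene of the 7 that rose in LiSel1lKO liver (Serpina7, the downstream one of its pair of annotated starts), for one that fell (Serpina12) and for one with no called difference (Serpina3n).
Serpina7, chrX:139085220-139085469, minus strand: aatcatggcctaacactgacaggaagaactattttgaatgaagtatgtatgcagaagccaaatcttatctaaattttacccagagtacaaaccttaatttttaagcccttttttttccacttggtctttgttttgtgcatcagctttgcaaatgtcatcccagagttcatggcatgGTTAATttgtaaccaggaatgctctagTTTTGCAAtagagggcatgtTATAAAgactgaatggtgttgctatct
Serpina12, chr12:104044444-104044693, minus strand: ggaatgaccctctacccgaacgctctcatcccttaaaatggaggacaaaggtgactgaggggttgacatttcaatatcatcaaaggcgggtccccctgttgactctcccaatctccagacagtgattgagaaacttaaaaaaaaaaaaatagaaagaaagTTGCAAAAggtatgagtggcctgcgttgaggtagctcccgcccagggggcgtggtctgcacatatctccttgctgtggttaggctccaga
Serpina3n, chr12:104406458-104406707, plus strand: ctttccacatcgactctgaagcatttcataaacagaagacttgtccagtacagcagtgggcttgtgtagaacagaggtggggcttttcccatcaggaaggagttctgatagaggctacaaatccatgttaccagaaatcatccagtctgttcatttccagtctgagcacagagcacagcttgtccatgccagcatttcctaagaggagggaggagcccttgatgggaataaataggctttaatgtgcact
Capitals mark matches to any of 10 motifs searched on both strands: STAT5 (TTCNNNGAA), HNF1 (GTTAAT), HNF4 (CAAAGTCCA), HNF6 (ATCGAT), FOXA (TGTTTAC), C/EBP (TTGCNNAA), the ER stress element, XBP1 core (GACGTG), ATF4 composite (TGATGCAA) and TATA box (TATAAA). In the Serpina7 window these were an HNF1 half-site match at bases 74 to 69 before the start, a C/EBP match at bases 47 to 40 and a TATA box at bases 27 to 22. The Serpina12 window held a C/EBP match at bases 90 to 83, and the Serpina3n window held none of the 10. The fourth gene, Serpina11, had a STAT5 match (TTCCAGGAA) at bases 65 to 57 before the downstream of its pair of starts. No pair of these matches overlapped. Among 32851 RefSeq promoter windows of the same length, 6.43% hold the HNF1 half-site letters, 9.56% the C/EBP letters, 12.4% the TATA box and 7.02% the STAT5 letters. The matches are a description of letters, and binding was not measured.

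Serpina6 (array feature 10402368) encodes corticosteroid-binding globulin, which carries cortisol and corticosterone in plasma. At 9 weeks its log2 values were 11.77, 11.66 and 11.87 in LiSel1lKO livers, against 11.24, 11.46 and 11.04 in wildtype livers. All 3 LiSel1lKO livers lay above all wildtype livers of that age. The difference was 0.52 ± 0.18 (SE; 1.43-fold), which did not pass the test over all features (limma, adjusted p = 0.214). At 3 weeks the values were 12.06, 12.16, 11.56 and 11.43 in LiSel1lKO livers, against 12.04, 12.02 and 11.94 in wildtype livers, so that 2 knockouts lay above and 2 below the wildtype range. The wildtype livers at 9 weeks thus held the lowest level of the 4 groups, 0.75 ± 0.18 (SE) below wildtype at 3 weeks on the log2 scale (adjusted p = 0.0674, or 0.0333 with features of 1 symbol alone). In LiSel1lKO livers the 9-week mean was 0.04 ± 0.17 (SE) below the 3-week mean (adjusted p = 0.977). In the order of means, from wildtype at 3 weeks through LiSel1lKO at 3 and at 9 weeks to wildtype at 9 weeks, the last step alone separated neighbouring groups without overlap.

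Serpina7 (array feature 10606928) encodes thyroxine-binding globulin, a plasma carrier of thyroid hormone. At 9 weeks its log2 values were 8.42, 9.14 and 9.45 in LiSel1lKO livers, against 6.25, 6.44 and 5.88 in wildtype livers. The lowest LiSel1lKO liver stood far above the highest wildtype liver. Serpina7 rose by 2.81 ± 0.31 (SE) on the log2 scale, or 7.03-fold (limma, adjusted p = 0.00756), the seventh largest rise among the 18820 genes. The call held without any 1 liver, and it ended when the spread was taken from the 9-week livers alone (adjusted p = 0.124). As these are bulk livers, a change in the share of cells that make a transcript and a change in RNA per cell cannot be told apart. Within plate column 5 (2 LiSel1lKO livers, 1 wildtype) the difference was 2.49, and within column 7 (1 LiSel1lKO liver, 2 wildtype) it was 3.08.

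At 3 weeks the Serpina7 values of the genotypes overlapped: 7.24, 7.37, 7.12 and 6.66 in LiSel1lKO livers, against 6.50, 7.41 and 7.35 in wildtype livers (log2 difference 0.01, 95% confidence interval -0.62 to 0.64; adjusted p = 0.995). In LiSel1lKO livers the 9-week level was 1.91 ± 0.29 (SE; 3.75-fold) above the 3-week level (adjusted p = 0.0418), and this call ended when any of 11 of the 13 livers was left out (adjusted p between 0.0551 and 0.180). The 2 livers whose loss left the call in place were replicate 1 of wildtype at 3 weeks and replicate 1 of LiSel1lKO at 9 weeks. It also ended with plate column as a term (adjusted p = 0.0751) and with the LiSel1lKO livers alone (adjusted p = 0.166), while within plate columns 5 and 7 the difference was 1.92 and 1.96. In wildtype livers the 9-week level was 0.90 ± 0.31 (SE) below the 3-week level without overlap (adjusted p = 0.210). The difference of the genotype effect between ages, 2.80 ± 0.42 (SE), had an adjusted p of 0.107 over all features. When only features with 1 symbol were tested, or without replicate 1 of LiSel1lKO at 9 weeks, it passed (adjusted p = 0.0321 and 0.0347).

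**Figure D1:**
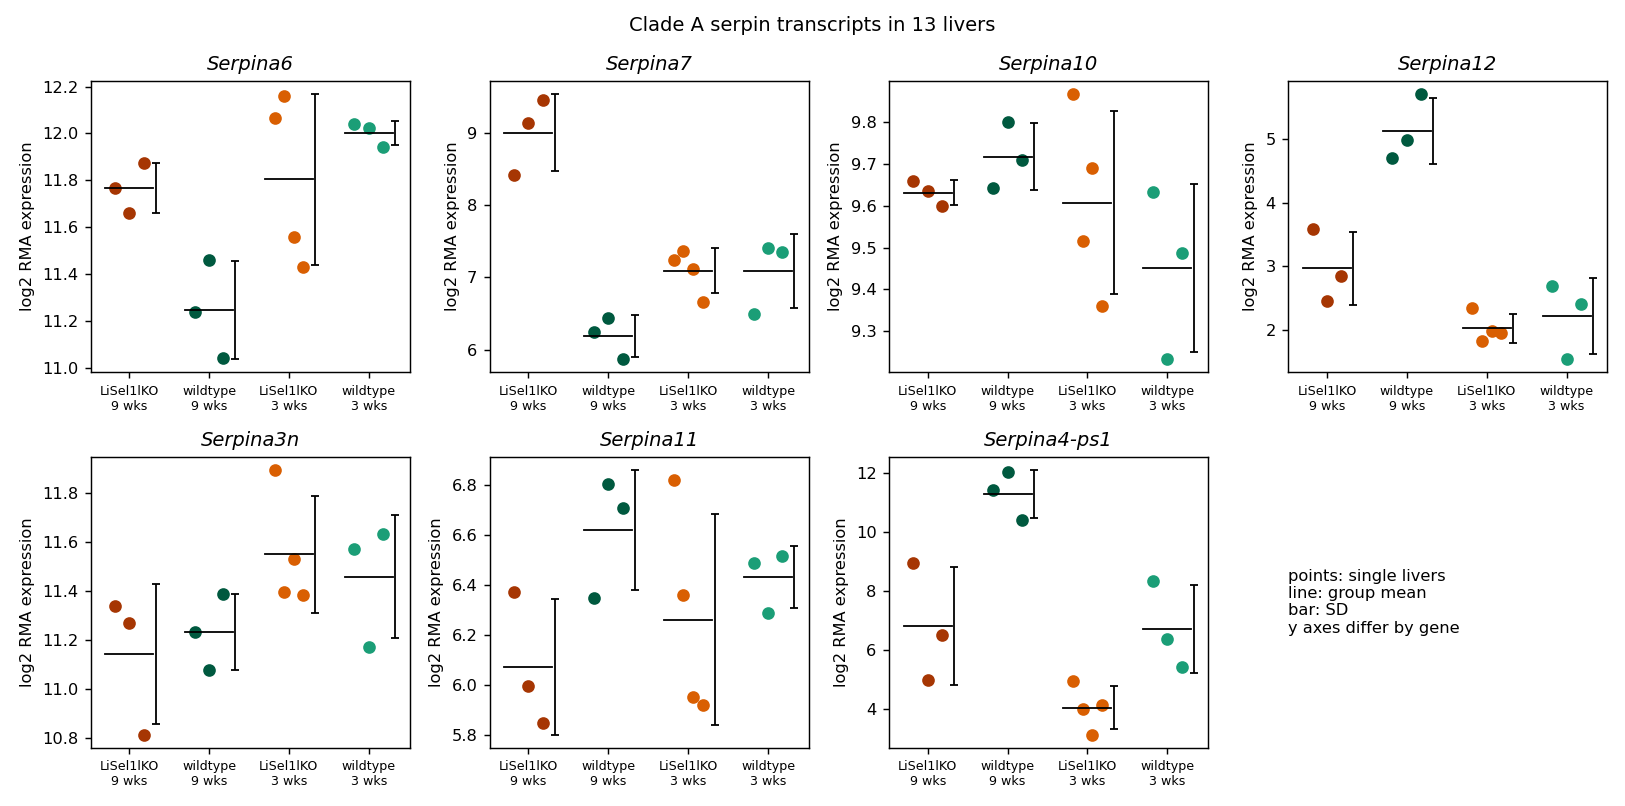
Log2 RMA expression of the 7 clade A serpin genes in each of the 13 livers, with LiSel1lKO left of wildtype at 9 and then at 3 weeks; points are livers, lines group means and bars the SD, and the vertical scale differs by gene. Serpina7 stood highest in the LiSel1lKO livers at 9 weeks (8.42 to 9.45), while Serpina12 and Serpina4-ps1 stood highest in the wildtype livers at 9 weeks.

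Serpina10 (array feature 10402360) encodes the protein Z-dependent protease inhibitor, which blocks coagulation factor Xa with protein Z as cofactor and factor XIa without it. It varied least of the 7 genes, by 0.63 log2 units over the 13 livers. At 9 weeks it was at 9.66, 9.64 and 9.60 in LiSel1lKO livers, against 9.64, 9.80 and 9.71 in wildtype livers. The difference was -0.09, with a 95% confidence interval from -0.38 to 0.20 (adjusted p = 0.845). At 3 weeks the values lay between 9.36 and 9.87 in LiSel1lKO livers and between 9.23 and 9.63 in wildtype livers (difference 0.16 ± 0.12, SE; adjusted p = 0.811). All 3 neighbouring pairs in its order of group means overlapped. The wildtype ages, at the ends of that order, narrowly did not overlap. In wildtype livers the 9-week level was 0.27 ± 0.13 (SE) above the 3-week level (limma, adjusted p = 0.421).

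Serpina12 (array feature 10402428) encodes vaspin, first described as an adipokine, which inhibits kallikrein 7. At 9 weeks it stood at 3.59, 2.46 and 2.85 in LiSel1lKO livers, against 4.70, 4.99 and 5.71 in wildtype livers. Each knockout liver lay below each wildtype liver. Serpina12 fell by 2.17 ± 0.36 (SE) on the log2 scale, to 0.222 of the wildtype level (adjusted p = 0.0189), the ninth largest fall among the 18820 genes. The call ended without replicate 2 or 3 of either genotype at 9 weeks (adjusted p = 0.0923 and 0.0896 for the LiSel1lKO livers, 0.0627 and 0.0518 for the wildtype livers) and with the 9-week livers alone (adjusted p = 0.157). Within plate columns 5 and 7 the difference was -1.77 and -2.75. Every LiSel1lKO liver, and every liver of 3 weeks, lay below the median of its own array for this gene, so that the fall is a lower bound if those levels are background. The 3 measured adipocyte markers (Adipoq, Plin1 and Lep) also lay below the array medians. Their mean level was 2.44 to 2.58 in LiSel1lKO and 2.39 to 2.57 in wildtype livers at 9 weeks, and 2.29 to 2.66 and 2.48 to 2.62 at 3 weeks.

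At 3 weeks Serpina12 was at 2.34, 1.81, 1.97 and 1.95 in LiSel1lKO livers, against 2.69, 1.54 and 2.40 in wildtype livers, with overlap (difference -0.19 ± 0.33, SE; adjusted p = 0.925). In wildtype livers the 9-week level was 2.92 ± 0.36 (SE; 7.59-fold, likewise a lower bound if the 3-week levels are background) above the 3-week level (adjusted p = 0.00270), with a range of 2.59 to 3.17 over the alternatives, in each of which it passed, and values of 2.44 and 3.67 within plate columns 5 and 7. In LiSel1lKO livers the 9-week values were also all above the 3-week values, by 0.95 ± 0.33 (SE), which did not pass the test (adjusted p = 0.347). The difference of the genotype effect between ages was -1.98 ± 0.49 (SE; adjusted p = 0.265).

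Serpina3n (array feature 10398075) belongs to the mouse family related to human alpha-1-antichymotrypsin and is known in liver as an acute phase gene. At 9 weeks it was at 11.34, 11.27 and 10.81 in LiSel1lKO livers, against 11.23, 11.08 and 11.39 in wildtype livers. At 3 weeks the values were 11.90, 11.40, 11.53 and 11.38 in LiSel1lKO livers, against 11.57, 11.17 and 11.64 in wildtype livers. The genotypes overlapped at both ages, the difference being -0.09 ± 0.18 (SE; adjusted p = 0.888) in the older and 0.09 ± 0.17 (adjusted p = 0.931) in the younger livers. The 95% confidence interval at 9 weeks reached 0.31 at its upper end. In LiSel1lKO livers the 9-week values lay below the 3-week values without overlap, by 0.41 ± 0.17 (SE; adjusted p = 0.446). Members of this mouse gene family are close in sequence, so that probe signal of relatives in this feature was not tested.

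Serpina11 (array feature 10402415) has no settled role that is known with confidence. At 9 weeks it was at 6.37, 6.00 and 5.85 in LiSel1lKO livers, against 6.35, 6.80 and 6.71 in wildtype livers. The groups touched, since LiSel1lKO replicate 1 lay just above wildtype replicate 1. The difference was -0.55 ± 0.23 (SE; adjusted p = 0.309). At 3 weeks the LiSel1lKO livers were at 6.82, 6.36, 5.95 and 5.92, against 6.49, 6.29 and 6.52 in wildtype livers, and spread wider than the wildtype livers (SD 0.422 and 0.124). Replicates 3 and 4, the lowest for Serpina11, Serpina6 and Serpina7 among the LiSel1lKO livers of this age, also had the least Sel1l (7.20 and 7.10). The other genes did not share this order: replicate 2 lay below replicate 3 or 4 for Serpina10, Serpina12, Serpina3n and Serpina4-ps1. Whether the level of Sel1l bears on any of these genes was not tested.

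Serpina4-ps1 (array feature 10398011) is the mouse pseudogene that corresponds to the human gene of kallistatin, an inhibitor of tissue kallikrein. It had by far the widest range of the 7 genes, 8.90 log2 units over the 13 livers. At 9 weeks its values were 8.95, 4.96 and 6.51 in LiSel1lKO livers, against 11.41, 12.02 and 10.39 in wildtype livers. The knockouts lay below the wildtype livers without overlap but spread widely among themselves (SD 2.01, against 0.821 in wildtype). Serpina4-ps1 fell by 4.47 ± 0.96 (SE) on the log2 scale, to 0.0452 of the wildtype level (adjusted p = 0.0476). This call lay close to the threshold. It ended with the 9-week livers alone (adjusted p = 0.204), when each array was centred on its median (adjusted p = 0.0522) and when any of 11 of the 13 livers was left out (adjusted p between 0.0532 and 0.174), the exceptions being replicate 1 of wildtype at 3 weeks and replicate 1 of LiSel1lKO at 9 weeks. The difference itself ran from -5.54 without replicate 1 to -3.55 without replicate 2 of LiSel1lKO at 9 weeks, with all other alternatives between, and was -4.29 and -5.94 within plate columns 5 and 7.

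Serpina4-ps1 was the sole one of the 7 genes whose genotypes also parted at 3 weeks. The values were 4.92, 3.98, 3.13 and 4.12 in LiSel1lKO livers, against 8.32, 6.36 and 5.42 in wildtype livers, again without overlap. The difference of -2.66 ± 0.90 (SE) was the largest fall among the 18820 genes over these livers and missed the threshold (limma, adjusted p = 0.560). Without the highest wildtype liver, replicate 1, it was -1.85, and without replicate 3 of wildtype it was -3.30. Plate column 5 alone gave -2.82, and column 7, with 1 wildtype liver, gave -2.34. The gene also rose with age. In wildtype livers the 9-week level was 4.57 ± 0.96 (SE; 23.8-fold) above the 3-week level (adjusted p = 0.0372), a call that ended when any of 8 livers was left out (replicates 1, 2 and 3 of wildtype at 9 weeks, replicates 2 and 3 of wildtype at 3 weeks, replicates 2 and 4 of LiSel1lKO at 3 weeks and replicate 3 of LiSel1lKO at 9 weeks; adjusted p between 0.0555 and 0.129) and with the wildtype livers alone (adjusted p = 0.0921). The difference was 5.39 without replicate 1 and 3.93 without replicate 3 of wildtype at 3 weeks, and 5.15 and 4.54 within plate columns 5 and 7. In LiSel1lKO livers the step was 2.77 ± 0.90 (SE; adjusted p = 0.298), or 1.70 without replicate 1 and 3.69 without replicate 2 of 9 weeks. The mean of LiSel1lKO livers at 9 weeks, 6.81, lay close to that of wildtype livers at 3 weeks, 6.70, and these groups overlapped.

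**Figure D2:**
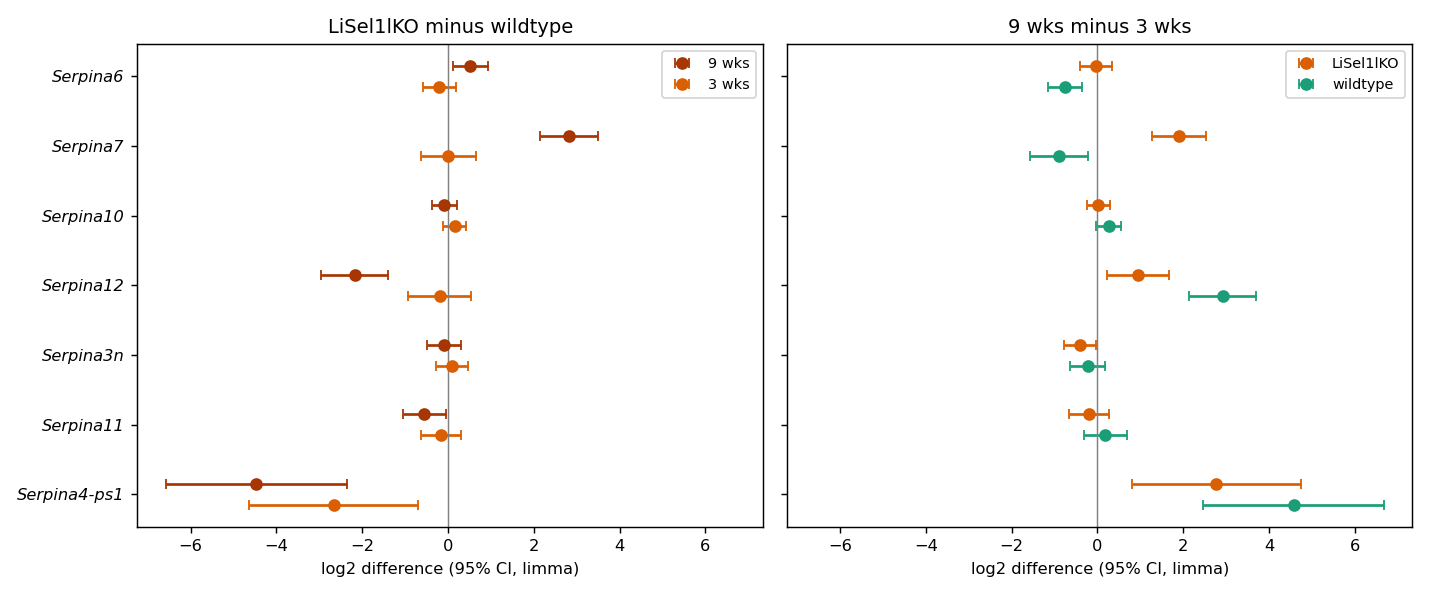
Log2 differences of the 7 genes with 95% confidence intervals from limma: LiSel1lKO minus wildtype at 9 and 3 weeks on the left, and 9 minus 3 weeks in LiSel1lKO and wildtype livers on the right. At 9 weeks Serpina7 lay at 2.81 and Serpina12 and Serpina4-ps1 at -2.17 and -4.47, while the 3-week interval lies clear of 0 for Serpina4-ps1 alone.

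Serpina7 is X-linked, and the other 6 genes lie in the serpin cluster of chromosome 12 in RefSeq. Of the genes of that cluster from Serpina10 to Serpina3n, 14 had a feature with 1 symbol. Of these, limma called 2 at 9 weeks, both down, where it called 1.52% of all features, 0.484% down. The 2 called were Serpina12 and Serpina4-ps1, which follow each other among the measured genes. Both were listed with results known, so that this count gives no independent support. On one side of the pair, Serpina9, known in humans from germinal centre B cells, differed by -0.59 and Serpina11 by -0.55. On the other side Serpina5, the protein C inhibitor, differed by -0.14, and Serpina3a and Serpina3b by -0.08 and -0.17. The levels of Serpina9, Serpina5, Serpina3a, Serpina3b and Serpina1f (mean 2.65, 2.33, 2.00, 1.99 and 2.51) lay below the array medians of 3.72 to 3.81. Among the Serpina1 genes, the alpha-1-antitrypsin family, which lie between Serpina6 and Serpina11, Serpina1f differed by 0.05, Serpina1b by -0.05, Serpina1c by -0.25 and Serpina1d by -0.37. Near-identical copies among them can share probe signal.

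**Figure D3:**
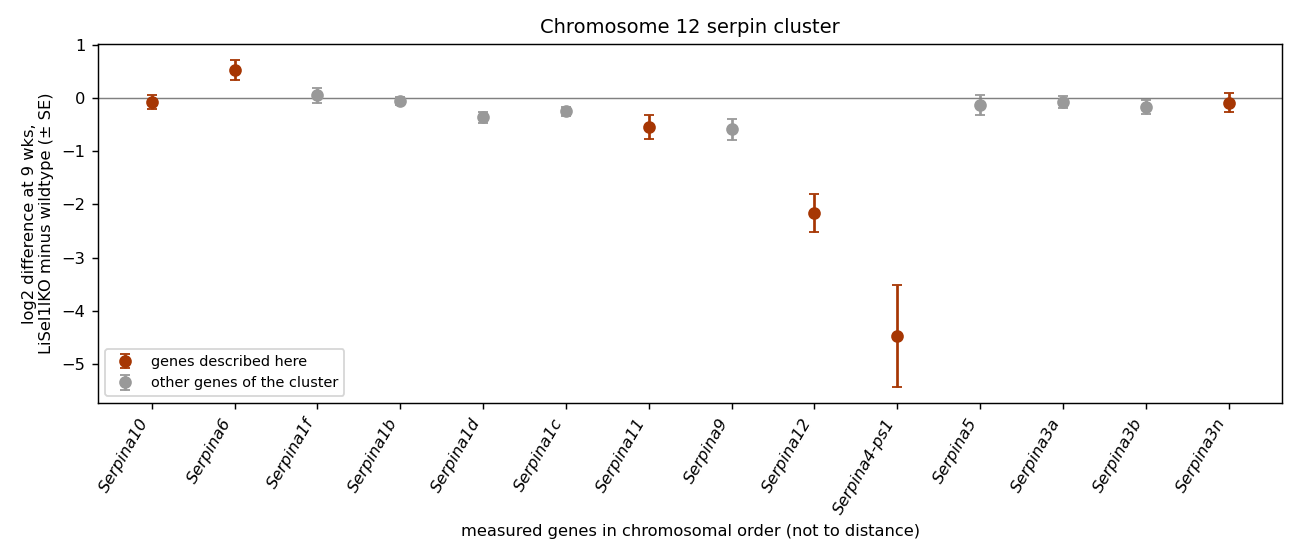
Log2 difference between LiSel1lKO and wildtype livers at 9 weeks (± SE) for 14 measured genes of the chromosome 12 serpin cluster, in gene order and not to distance. Serpina12 and Serpina4-ps1, neighbours among the measured genes, stand apart at -2.17 and -4.47, while the other 12 lie between -0.59 and 0.52.

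For the 3 genes whose range over the livers exceeded 2 log2 units, similar genes were sought, leaving out the serpins described, predicted genes (Gm names) and Rik clones. Among the rest, the genes with the most similar pattern were taken by the smallest root mean square difference between mean-centred values over the 13 livers. For Serpina7 these were Cntnap1, a contactin-associated membrane protein (0.485), and Syvn1, the gene of Hrd1 (0.535), where the root mean square deviation of Serpina7 about its own mean was 1.05. Cntnap1 stood at 4.93, 5.00 and 5.43 in LiSel1lKO livers at 9 weeks, against 3.10, 3.41 and 3.24 in wildtype livers. These wildtype levels of Cntnap1 lay below the array medians of 3.72 to 3.81. Syvn1 stood at 8.87, 9.81 and 10.11 in LiSel1lKO livers at 9 weeks, against 7.80, 7.91 and 8.00 in wildtype livers, with replicate 1 lowest of the knockouts as for Serpina7. At 3 weeks Syvn1 was also higher without overlap (0.54), while Cntnap1 (0.25) and Serpina7 (0.01) overlapped. With age in wildtype livers Syvn1 (0.22) and Cntnap1 (-0.27) overlapped, while Serpina7 (-0.90) did not. For Serpina12 they were C6 (0.370) and C9 (0.465), components of the membrane attack complex of complement, against an own deviation of 1.29. C6 was at 7.56, 6.34 and 6.74 in LiSel1lKO livers at 9 weeks, against 8.53, 8.33 and 9.30 in wildtype livers. C9 was at 9.33, 8.29 and 8.83, against 10.51, 10.51 and 10.61 in wildtype livers.

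For Serpina4-ps1 the most similar genes were Hsd3b5, a male-biased steroid reductase (1.26), and Cyp4a12b, a male-biased fatty acid hydroxylase (1.33), with an own deviation of 2.85. Hsd3b5 was at 7.10, 3.17 and 3.28 in LiSel1lKO livers at 9 weeks, against 9.58, 9.43 and 8.99 in wildtype livers. Unlike Serpina4-ps1, it overlapped between genotypes at 3 weeks (difference -0.18 ± 0.84, SE, adjusted p = 0.975), as did Cyp4a12b (-0.07 ± 0.70, adjusted p = 0.987). Whether these 3-week differences differ from that of Serpina4-ps1 was not tested. Among the LiSel1lKO livers of 9 weeks, replicate 1 was the nearest to wildtype for Serpina7, Serpina12 and Serpina4-ps1. The same liver had the most Sel1l of the 3 (7.90) and the least Hspa5, the main ER chaperone (11.50, against 12.43 and 12.49 in replicates 2 and 3). The part of these values in the result was not tested.

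**Figure D4:**
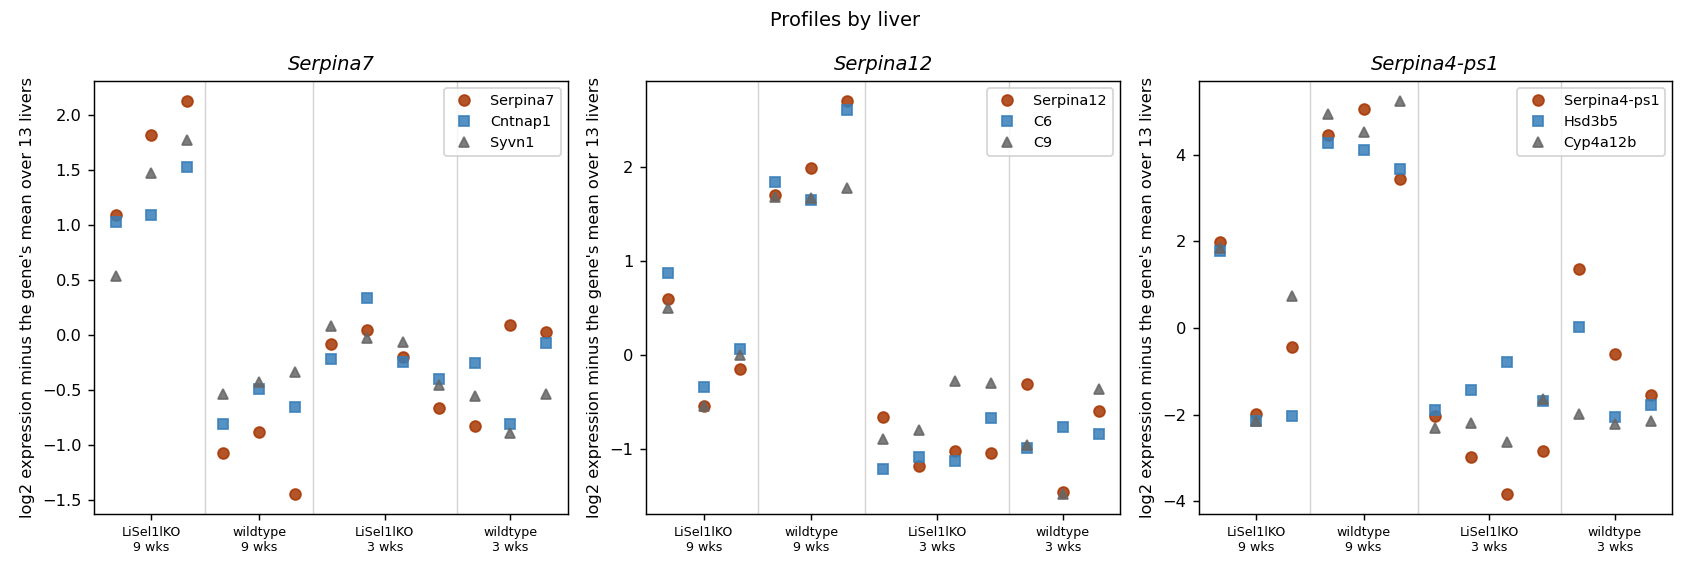
Log2 expression minus each gene's mean over 13 livers, for Serpina7, Serpina12 and Serpina4-ps1, each with the 2 genes of most similar pattern; each point is 1 liver, with LiSel1lKO left of wildtype at 9 and then at 3 weeks. In the LiSel1lKO livers at 9 weeks replicate 1, drawn first, lies nearest to the wildtype livers for each of the 3 serpin genes.

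Of 8 other clade A serpins measured, limma called 0 at 9 weeks (3 at an unadjusted p under 0.05, which 4941 of the 35556 features reached at this age; median -0.16), with Serpina1d the nearest at -0.37 ± 0.10 (SE; adjusted p = 0.122). Of 12 serpins of other clades it called 0 (4 unadjusted; median -0.10). Among these, Serpind1, heparin cofactor II, differed by -0.45 ± 0.11 (adjusted p = 0.0759) and Serping1, the C1 inhibitor, by -0.37 ± 0.09 (adjusted p = 0.0867). In wildtype livers Serping1 rose with age by 0.57 ± 0.09 (adjusted p = 0.0125), the sole call of that list. Of 9 proteases and cofactors that meet clade A serpins 0 were called at 9 weeks (4 unadjusted; median -0.21). Proz, protein Z, the cofactor of the Serpina10 product, was at 9.26, 8.82 and 8.65 in LiSel1lKO livers, against 9.48, 9.49 and 9.58 in wildtype livers, a difference of -0.61 ± 0.14 without overlap (adjusted p = 0.0572). Proc, protein C, differed by -0.40 ± 0.11 (adjusted p = 0.106).

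On the side of the carried hormones, 0 of 11 genes of thyroid hormone transport and action were called at 9 weeks (limma; 6 unadjusted; median -0.21). Crym, a thyroid hormone-binding protein of the cytosol, differed by 0.50 ± 0.14 and Thrb, the main hepatic thyroid hormone receptor, by -0.53 ± 0.14 (SE; adjusted p = 0.104 and 0.109). In wildtype livers 2 of the 11 rose with age, Slco1a1, an organic anion carrier (6.12 ± 0.77, adjusted p = 0.00295), and Thrb (0.67 ± 0.14, adjusted p = 0.0418). Of 13 genes of glucocorticoid handling and response 1 fell at 9 weeks (median -0.08), Hsd11b1, which regenerates active glucocorticoid from its inactive form. It was at 9.62, 9.12 and 9.34 in LiSel1lKO livers, against 10.08, 10.13 and 10.12 in wildtype livers (difference -0.75 ± 0.13, adjusted p = 0.0196). With age in wildtype livers 1 of the 13 fell, Mt2, a metallothionein (-1.66 ± 0.28, adjusted p = 0.0154), and in LiSel1lKO livers also 1, Akr1d1, a steroid 5-beta-reductase (-1.16 ± 0.19, adjusted p = 0.0477).

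Beside these stood the lists of genes with a known sex bias or age dependence in liver. Of 16 male-biased genes 10 fell at 9 weeks and 13 rose with age in wildtype (medians -1.84 and 3.37), and of 12 measured female-biased genes 4 rose and 8 fell in the same comparisons (medians 0.91 and -1.90). The male-biased genes with the smallest p at 9 weeks were Ugt2b38, a glucuronosyltransferase (-1.24 ± 0.18, SE), the cytochromes Cyp2d9 (-2.10 ± 0.31) and Cyp4a12a (-4.14 ± 0.61), and Mup21, a major urinary protein (-3.01 ± 0.47), with adjusted p between 0.0123 and 0.0158. With age in wildtype livers they were Cyp4a12a (7.09 ± 0.61), Mup21 (4.69 ± 0.47), C6 (2.91 ± 0.30) and Cyp4a12b (7.02 ± 0.74). The 4 female-biased genes that rose at 9 weeks were Hao2, a hydroxyacid oxidase (2.13 ± 0.29), and the cytochromes Cyp3a44 (1.05 ± 0.18), Cyp2b9 (3.23 ± 0.56) and Cyp17a1 (1.71 ± 0.36). With age in wildtype livers Hao2 fell by 5.21 ± 0.29, Cyp3a44 fell by 1.47 ± 0.18, Cyp2b9 fell by 4.26 ± 0.56 and Cyp2b13 fell by 4.70 ± 0.77. Serpina12 and Serpina4-ps1 moved in the directions of the male-biased list in both comparisons. So did Serpina11 (-0.55 and 0.19) and Serpina10 (-0.09 and 0.27), uncalled in both. Serpina7 (2.81 and -0.90) and Serpina6 (0.52 and -0.75) moved in those of the female-biased list. Of these 4 differences only the 2.81 was called. Serpina3n (-0.09 and -0.23) followed neither list. Both comparisons hold the wildtype livers of 9 weeks, with opposite sign, so that opposite directions can arise from those shared livers alone. Whether any serpin gene follows either list was not tested. Between genotypes at 3 weeks the male-biased median was -0.06, where Serpina4-ps1 differed by -2.66. Of 18 transcription factors and growth hormone signalling genes 2 fell at 9 weeks (median -0.44), Ghr, the growth hormone receptor (-0.79 ± 0.13, SE; adjusted p = 0.0196), and Igf1, its secreted target (-0.53 ± 0.10; adjusted p = 0.0295). With age in wildtype livers Ghr (0.81 ± 0.13) and the repressor Bcl6 (2.20 ± 0.44) rose, and Cux2, a female-biased repressor, fell by 2.03 ± 0.34.

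Of 15 acute phase genes 1 rose, Apcs, serum amyloid P (1.81 ± 0.26; adjusted p = 0.0123), while the list median was -0.21 and Serpina3n differed by -0.09. With age in wildtype livers Orm1, an orosomucoid, rose (3.31 ± 0.55) and Apcs fell by 2.11 ± 0.26. Of 14 ER stress genes 6 rose (median 1.27), among them Hspa5 (1.63 ± 0.24), Syvn1 (1.70 ± 0.26), Creld2 (2.42 ± 0.39) and Manf (1.77 ± 0.32), with adjusted p between 0.0126 and 0.0284; with age in wildtype livers limma called 0 of them (1 unadjusted). At 3 weeks 0 members of any of these lists passed limma's threshold, and at an unadjusted p under 0.05 there were 11 of the ER stress genes and between 0 and 2 in each of the other lists. A link of any list to the serpin genes was not tested.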

How the data were processed

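RNA from the livers of 13 mice was hybridised to Affymetrix arrays with a whole-transcript label. The deposited log2 values were made by the authors with RMA (robust multi-array averaging), per the submitters' processing notes. RMA quantile-normalizes the arrays, so that a shift shared by most genes would be largely removed. Its version, the probe sets and any genome build are not given in the sources used here. In all, 35556 features were deposited, with values between 0.405 and 13.6. Features were named from the platform annotation: 21218 had 1 symbol, 1881 several, and 12457 were unlisted.

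Groups and replicate numbers came from the titles, although replicate 3 of either genotype at 9 weeks is numbered differently in its array description. limma 3.58.1 in R 4.3.3 fitted 1 mean per group over all 13 livers (lmFit, eBayes, two-sided), with Benjamini-Hochberg adjustment over all features and a threshold of 0.05. The code was tested on simulated data. Precision is limited by the number of arrays. Whether livers differ by litter or day is not given. The p-values set group differences against the spread between these livers and treat the livers as independent. The plate columns 5 and 7 in the array descriptions served as a technical batch. Alternatives were plate column or replicate number as a term, other filters, scalings and variance settings, only the compared groups, and each liver left out.

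The genes and lists were chosen with earlier results of these data known. Named were all genes found, called list members (up to 4), otherwise the nearest 2, and the similar genes.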

Additional observations from a re-analysis of the deposited data

Results flagged for a closer look

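Among the 34 named genes whose 4 LiSel1lKO livers of 3 weeks were examined for a value far from the others, 1 was found, where chance alone gives about 1 in 20 of the genes examined. The find of 1 among 34 is thus no more than chance gives. Slco1a1, an organic anion carrier of hepatocytes, stood at 6.18 in replicate 3, against 3.34, 3.69 and 3.18 in replicates 1, 2 and 4 and 3.05 to 3.71 in the wildtype livers of that age.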

How the results depend on the processing

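Of the 723 recomputed differences of single genes, 675 kept their direction or uncalled state and their side of the threshold, 42 lost a call, 6 gained one and 0 called differences turned round. With 1 liver left out, the number of the 7 genes called was 1 to 3 for LiSel1lKO against wildtype at 9 weeks, 0 at 3 weeks, 0 to 1 for the difference between ages, 1 to 2 for age in wildtype and 0 to 1 for age in LiSel1lKO. With only the compared groups in the fit, the count was 0 at 9 weeks (Serpina7, adjusted p = 0.124), 1 for age in wildtype and 0 for age in LiSel1lKO. That fit rests on fewer livers for the spread. When only features with 1 symbol were tested, 1 gene was called for the difference between ages. With plate column as a term 0 were called for age in LiSel1lKO. With the replicate block the count for age in LiSel1lKO was also 0 (Serpina7, adjusted p = 0.134), and it stayed at 3 for the genotypes at 9 weeks.

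The labels give no pairing by replicate number. Deviations of same-numbered livers correlated between -0.011 and 0.071, while 7 of 12 livers correlated best with their own number. These 12 comparisons share livers and no chance level was computed for them, so that a pairing was not tested. The count over all features at 9 weeks was 539, against 184 with the replicate block, 294 with plate column, 866 above the median level, 1 with only the compared groups, and 18 to 1178 with 1 liver left out. For age in LiSel1lKO it was 55, against 12, 18, 109 and 9 under the same settings, 144 with 1-symbol features, 35 with arrays centred on their median, and 6 to 210. For age in wildtype it was 672, against 440 with the block, 255 with only the compared groups and 296 to 639. For the difference between ages it was 0, against 15 with 1-symbol features and 0 to 36 with 1 liver left out. At 3 weeks it was 0, against 2 with 1-symbol features and 0 to 1. A second feature per gene could not be tried, since each gene had 1, and Serpina12 was not tested above the median level, being too dim.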
